A study of Mus musculus with 6 samples.

Results

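The genes described here are 30 DNA damage checkpoint and repair genes of the mouse, taken by symbol: the BRCA1 and BRCA2 assemblies, genes of strand exchange, Fanconi genes, the sensors and trimmers of broken DNA ends, a helicase and nucleases that act on joined strands, 1 mismatch repair gene, 4 checkpoint kinases and 2 PARP enzymes. They are 30 of the 39179 genes listed, and all 30 were found and could be tested. The samples were liver tumours of C57BL/6 wild-type mice whose hepatocytes had received transposable elements by hydrodynamic injection, a forceful tail vein injection that carries DNA into liver cells. In 3 tumour samples (Myc/NrasG12V) the elements encoded Myc and NrasG12V, the activated form of the RAS family GTPase Nras, and in 3 others (Myc/Akt1) they encoded Myc and Akt1, a kinase of the insulin pathway. Myc was thus shared by both groups, no normal liver or tumour with Myc alone was analysed here, and the promoter of the elements was not given in the sources used here. Polyadenylated RNA was sequenced, and levels are given as CPM, the reads of a gene scaled by the library's total of reads assigned to genes.

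Cells repair a double-strand break without error by homologous recombination, in which the broken ends are trimmed, prepared for strand exchange under the guidance of BRCA1 and BRCA2, and copied from the sister chromatid. The Fanconi pathway unhooks crosslinks between DNA strands and hands the resulting break to the same machinery, while the kinases ATM and ATR sense damage and, through CHEK2 and CHEK1, hold the cell cycle. Because a sister chromatid exists only after replication, many of these genes are transcribed mostly in dividing cells, and in the adult liver, where few hepatocytes divide, they are generally low.

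The libraries held 17881282 to 27865094 reads assigned to genes, so that 1 read was worth 0.0359 to 0.0559 CPM. The injected genes followed the labels: Nras had 157.7, 155.4 and 199.8 CPM in Myc/NrasG12V tumours, against 60.9, 54.9 and 52.1 CPM in Myc/Akt1 tumours, and Akt1 had 55.2, 52.9 and 87.1 CPM in Myc/NrasG12V tumours, against 246, 313.6 and 280.2 CPM in Myc/Akt1 tumours. Myc did not pass the test (limma adjusted p = 0.945). Hepatocyte markers were the most abundant of the cell type lists in both groups, as the liver label requires, with 157070 to 203420 summed CPM in Myc/NrasG12V tumours and 46949 to 63606 in Myc/Akt1 tumours. Albumin (Alb) alone took 9.07 to 12.4% of the reads in Myc/NrasG12V tumours and 2.99 to 3.85% in Myc/Akt1 tumours. Transcripts of the mitochondrial genome took 2.05, 2.85 and 3.99% of the reads in Myc/NrasG12V tumours, against 9.09, 8.65 and 7.62% in Myc/Akt1 tumours, without overlap, and the part of either share in the results was not tested. Replicate 3 of Myc/NrasG12V stood apart from replicates 1 and 2 on the second principal component, which carried 11.6% of the variance of all genes.

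The DNA repair and checkpoint genes were lower in Myc/NrasG12V than in Myc/Akt1 tumours. Of the 30 genes, 23 were lower at an adjusted p under 0.05 and 0 were higher, by limma on log2(CPM + 1) with Benjamini-Hochberg adjustment over 14365 genes. Among all genes tested, 29.5% were lower and 10.0% were higher by the same rule. The 7 that did not pass were Brca1, Palb2, Xrcc3, Blm, Mus81, Msh6 and Parp2. Both called and lower by more than 1 on the log2 scale were 20 of the 30 genes, against 15.7% of all genes tested. In 24 of the 30, every Myc/NrasG12V library lay below every Myc/Akt1 library, as it did for 38.0% of all genes tested. The median difference of the 30 genes was −1.47 on the log2(CPM + 1) scale, against −0.26 over all genes tested, and 7.73% of all genes had a difference below the members' median. The 30 genes were chosen with earlier results of these data known. Since the genes were read out of bulk tumours, fewer cells that carry a transcript and less of it per cell cannot be told apart.

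**Figure D1:**
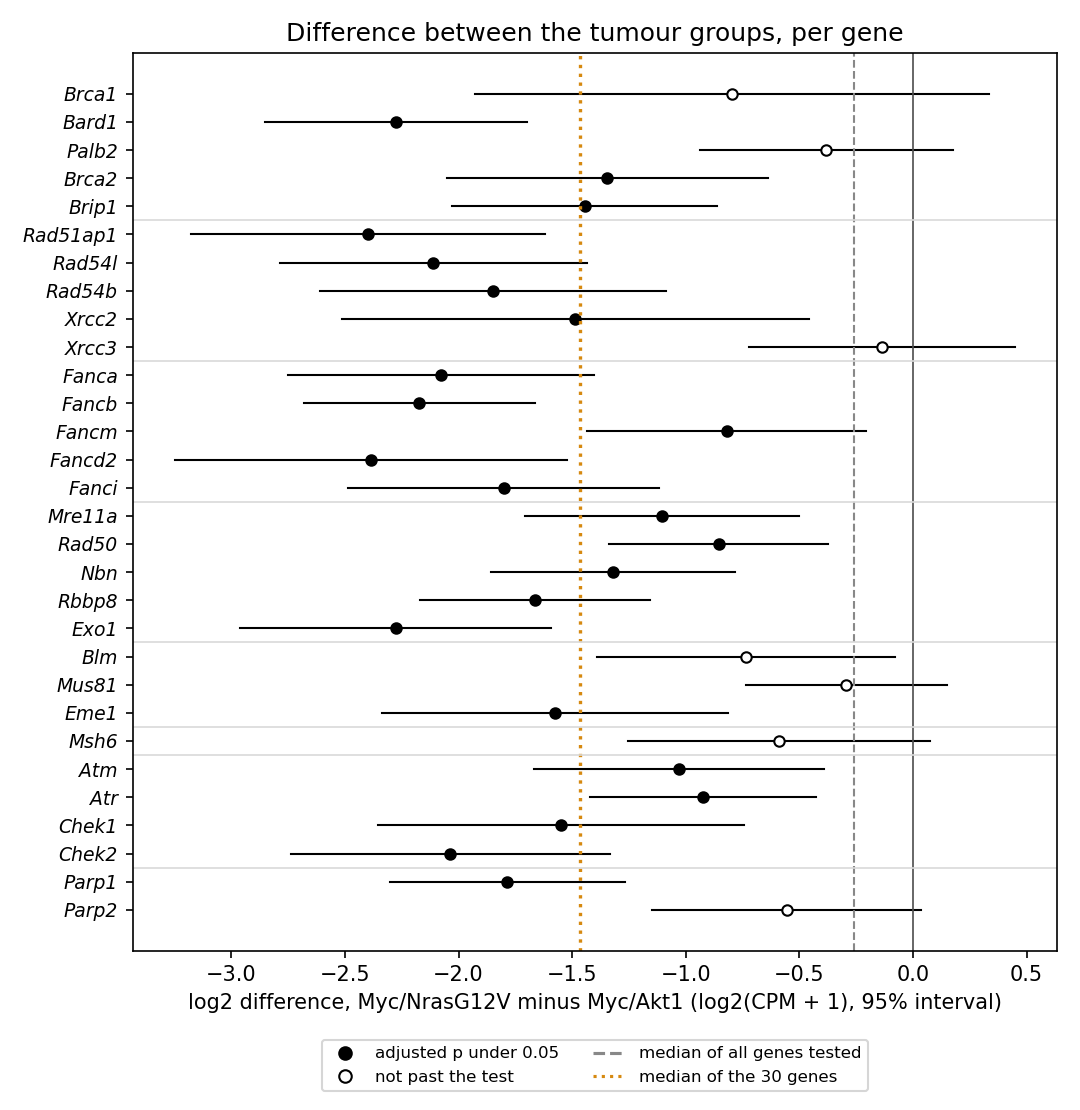
Difference of each gene between the tumour groups (Myc/NrasG12V minus Myc/Akt1, log2(CPM + 1), x axis) with its 95% interval, ordered by role. Filled points passed limma at an adjusted p under 0.05 (23 genes) and open points did not (7 genes). The dashed line is the median of all genes tested (−0.26) and the dotted line that of the 30 genes (−1.47).

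The counts depended on how the libraries were scaled. With scaling factors (TMM, median of ratios or upper quartile), which set the typical gene equal between libraries, the median of all genes tested moved to 0.0048, 0.0090 and 0.051 in that order. Of the 30 genes, 19, 19 and 17 were then lower, against 17.9%, 17.5% and 16.3% of all genes tested, and 0 were higher under each. Xrcc3 turned to higher values in Myc/NrasG12V under all 3 factors and Mus81 under the upper-quartile factors, both without passing the test. Relative to the median of all genes tested, the median of the 30 genes was −1.20 on the CPM scale and −1.23 under TMM. The count tests on the recovered reads called 20 of the 30 lower by edgeR and 22 by DESeq2, against 17.5% and 19.4% of all genes tested. Of all genes called, 74.7% were lower on the CPM scale, against 52.4%, 51.5% and 48.0% with the 3 factors in the order above, 51.3% by edgeR and 50.4% by DESeq2.

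Summed over the 30 genes, the level was 221, 245 and 266 CPM in Myc/NrasG12V tumours, against 675, 694 and 466 CPM in Myc/Akt1 tumours. The groups did not overlap, and the lowest Myc/Akt1 library was replicate 3. That library was also the lowest of its group for 27 of the 30 genes, whereas it was the lowest for 41.0% of all genes tested. Genes of cell division differed in the same direction and by more, with a median of −3.11. Of these, 32 of 32 were lower, against 29.5% of all genes tested. All 32 were also lower under each of the 3 scaling factors, against 17.9%, 17.5% and 16.3%. This list, like the 30 genes, was chosen with earlier results of these data known. The division genes summed to 184, 300.2 and 193 CPM in Myc/NrasG12V tumours, against 2211, 1812 and 1154 CPM in Myc/Akt1 tumours. In both lists Myc/NrasG12V replicate 1 and Myc/Akt1 replicate 3 were the lowest of their groups. The highest libraries differed. They were Myc/NrasG12V replicate 3 and Myc/Akt1 replicate 2 for the repair genes, and Myc/NrasG12V replicate 2 and Myc/Akt1 replicate 1 for the division genes. The repair genes averaged 244 ± 22.6 CPM in Myc/NrasG12V and 612 ± 127 CPM in Myc/Akt1 (SD, n = 3 each), and the division genes 226 ± 64.6 CPM in Myc/NrasG12V and 1726 ± 534 CPM in Myc/Akt1. Within these 6 libraries the level of the repair genes and the share of dividing cells cannot be told apart.

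**Figure D2:**
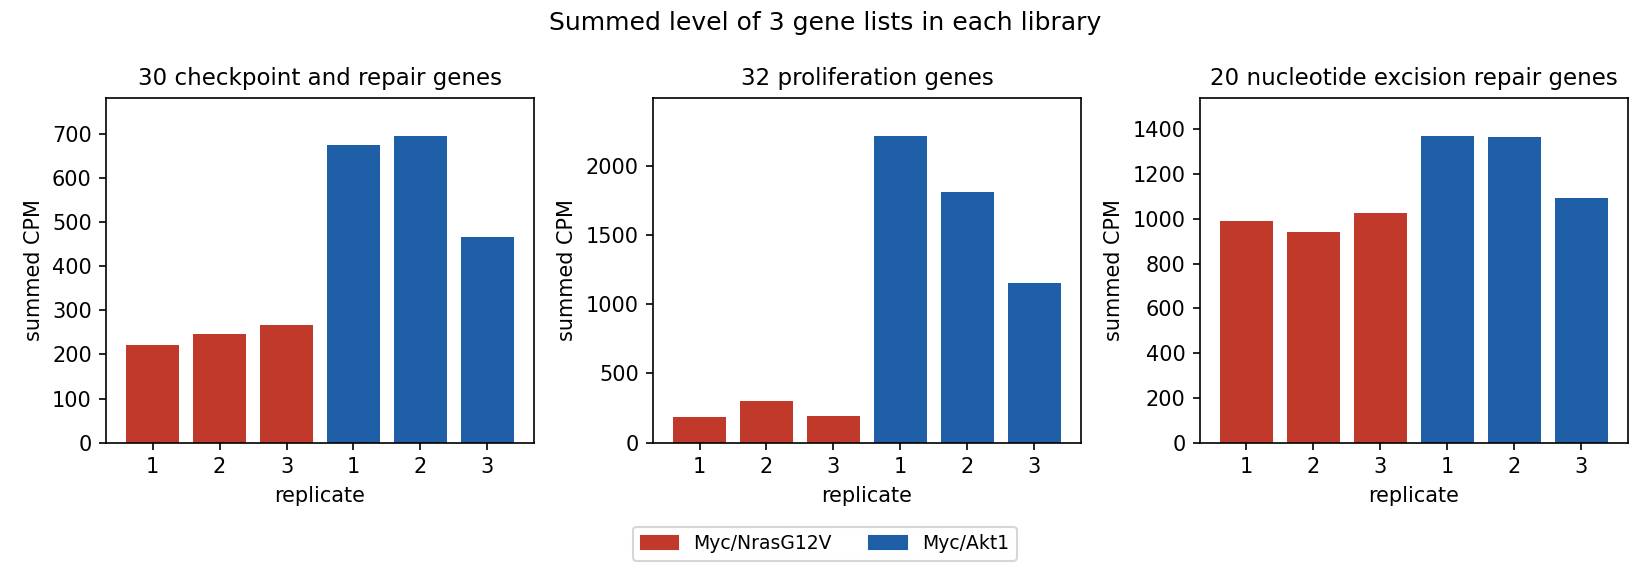
Summed CPM of 3 gene lists in each library, with 1 bar per replicate and Myc/NrasG12V to the left of Myc/Akt1. The repair genes reach 221 to 266 CPM in Myc/NrasG12V and 466 to 694 CPM in Myc/Akt1, the proliferation genes 184 to 300.2 CPM in Myc/NrasG12V and 1154 to 2211 CPM in Myc/Akt1, and the 20 nucleotide excision repair genes 943 to 1028 CPM in Myc/NrasG12V and 1092 to 1369 CPM in Myc/Akt1.

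Markers of blood cells also moved with the groups. The erythroid list, led by the globin gene Hbb-bs, summed to 303, 1074 and 1872 CPM in Myc/NrasG12V tumours, against 58.3, 50.9 and 105 CPM in Myc/Akt1 tumours, with 7 of 9 tested markers higher. The neutrophil list, led by S100a9, summed to 26.0, 63.0 and 202 CPM in Myc/NrasG12V tumours, against 2.59, 2.48 and 1.86 CPM in Myc/Akt1 tumours, with 7 of 9 higher. The erythroid genes Alas2 (means of 49.0 CPM in Myc/NrasG12V and 36.0 CPM in Myc/Akt1, limma adjusted p = 0.762) and Klf1 (1.08 CPM in Myc/NrasG12V and 1.43 CPM in Myc/Akt1, 0.750) did not pass, nor did the neutrophil genes Elane and Camp. No marker of either list was at 0 in every library of a group. Of the other lists, 6 of 12 hepatocyte, 4 of 10 T and NK cell, 3 of 8 endothelial, 2 of 10 macrophage, 2 of 9 stellate, 1 of 6 cholangiocyte and 0 of 4 B cell markers tested were higher. Among all genes tested, 10.0% were higher and 29.5% lower by the same rule. On the CPM scale the macrophage, stellate, cholangiocyte and B cell counts, with few markers each, are thus no result about those cells. Of these other lists, 1 hepatocyte, 1 T and NK cell and 1 endothelial marker were lower, and 0 of them under the 3 scaling factors. With the 3 scaling factors 6 of 10 macrophage markers and 3 of 6 cholangiocyte markers were higher, against 16.2%, 16.5% and 17.7% of all genes tested. The part of these cells in the lower repair transcripts was not tested.

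Windows around the starts of the genes were searched for letters known from cell cycle promoters, since 23 of the 30 genes were lower. RefSeq promoter windows (GRCm38.p6, 250 bases before the start and 50 from it) were at hand for 23 of the 30 genes. An E2F-type match, TTCCCGC or a close variant on either strand (TTCGCGC as the first variant, TTGCCGC as the second and TTGGCGC as the third), was present for 13 of the 23 genes (56.5%), against 18.3% of 10572 tested genes and 10.9% of all 27025 genes with a window. It was present for 10 of the 16 genes that were called lower and for 3 of the 7 that were not called. In Brca1, Rad51ap1, Fanci, Msh6, Atm and Chek1 the only E2F-type match lay after the start, and in Brip1 it spanned the start. The letters CCAAT, bound by the factor NF-Y, were present for 14 of 23 (60.9%), against 42.4% of tested genes, and TTTGAA, the cell cycle homology region, for 2 of 23 (8.70%), against 14.7%. CCAAT on the reverse strand reads ATTGG and can share letters with TTGGCGC, so these matches are not separate. A match describes the sequence without showing that a factor binds it. The 250 bases before the start are shown, from 5′ to 3′ on the strand of the gene, for 4 genes. Bard1, Fancb and Chek2 are strongly lowered genes of 3 roles, each with an E2F-type match. Parp1 was lower with neither an E2F-type nor a TTTGAA match. Rad54l (difference −2.11) and Fanca (−2.08), not shown, also had neither match and differed more than Chek2 (−2.04). Capitals mark E2F-type and TTTGAA matches on either strand. The windows are chr1:71102973-71103222 on the minus strand (Bard1), chrX:164980342-164980591 on the plus strand (Fancb), chr5:110839733-110839982 on the plus strand (Chek2) and chr1:180568641-180568890 on the plus strand (Parp1).
Bard1: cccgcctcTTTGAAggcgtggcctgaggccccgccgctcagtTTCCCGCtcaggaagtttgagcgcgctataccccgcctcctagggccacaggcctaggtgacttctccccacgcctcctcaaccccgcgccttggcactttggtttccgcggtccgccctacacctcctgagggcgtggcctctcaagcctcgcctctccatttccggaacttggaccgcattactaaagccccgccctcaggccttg
Fancb: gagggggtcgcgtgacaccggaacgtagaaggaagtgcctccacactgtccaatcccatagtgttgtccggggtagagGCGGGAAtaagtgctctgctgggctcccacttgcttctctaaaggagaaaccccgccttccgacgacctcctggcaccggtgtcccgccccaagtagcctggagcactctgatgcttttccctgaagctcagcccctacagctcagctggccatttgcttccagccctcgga
Chek2: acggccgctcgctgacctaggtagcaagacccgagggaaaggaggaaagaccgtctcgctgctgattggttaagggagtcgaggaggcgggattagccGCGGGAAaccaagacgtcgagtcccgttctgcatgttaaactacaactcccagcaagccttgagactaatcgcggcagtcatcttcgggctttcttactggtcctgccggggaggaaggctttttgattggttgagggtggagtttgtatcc
Parp1: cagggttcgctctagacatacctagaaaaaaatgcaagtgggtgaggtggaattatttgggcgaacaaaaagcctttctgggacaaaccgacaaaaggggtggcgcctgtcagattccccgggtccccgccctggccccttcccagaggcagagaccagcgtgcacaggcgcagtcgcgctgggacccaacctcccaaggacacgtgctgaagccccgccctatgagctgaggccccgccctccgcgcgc
The distances given here are from the RefSeq start. The GENCODE span of Bard1 reaches to position 71103146, inside its window, so part of the printed Bard1 bases lie within that span. The GENCODE span of Chek2 also begins inside its window, at position 110839979. Bard1 carries the TTTGAA match near the far end of the window and an E2F-type match 208 bases before the RefSeq start. Fancb has its E2F-type match 172 bases before the start and Chek2 152 bases before it, both on the reverse strand.

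Among the BRCA1 and BRCA2 assemblies, 3 of 5 genes were lower and Brca1 itself did not pass. Bard1 (ENSMUSG00000026196, chr1:71027498-71103146), which encodes the partner that forms the ubiquitin ligase with BRCA1, had 0.478, 1.01 and 0.559 CPM in Myc/NrasG12V tumours, against 9.46, 6.78 and 5.45 CPM in Myc/Akt1 tumours. The groups lay far apart, and the Myc/NrasG12V mean was 9.43% of the Myc/Akt1 mean, a log2 difference of −2.28 (95% interval −2.85 to −1.70, limma adjusted p = 3.48e-04). Brca1 (ENSMUSG00000017146, chr11:101488764-101551955), the scaffold that starts end trimming and loads the recombination proteins, had 4.39, 13.0 and 13.1 CPM in Myc/NrasG12V tumours, against 21.1, 27.0 and 8.09 CPM in Myc/Akt1 tumours. Replicate 3 of Myc/Akt1 lay between the Myc/NrasG12V libraries, and the difference of −0.80 had an interval of −1.93 to 0.33 (limma adjusted p = 0.234). Brca2, which prepares trimmed single-stranded DNA for strand exchange, had 8.88, 4.96 and 12.0 CPM in Myc/NrasG12V tumours, against 26.9, 22.8 and 17.9 CPM in Myc/Akt1 tumours. Every Myc/NrasG12V library was below every Myc/Akt1 library, at 38.2% of the Myc/Akt1 mean (limma adjusted p = 0.00942). Brip1, a helicase bound by BRCA1, was likewise separate, with 3.30 to 4.73 CPM in Myc/NrasG12V and 9.0 to 14.8 CPM in Myc/Akt1 (limma adjusted p = 0.00286). Palb2, which bridges BRCA1 and BRCA2, overlapped, with 1.74 to 2.67 CPM in Myc/NrasG12V and 2.41 to 4.20 CPM in Myc/Akt1 (difference −0.38, interval −0.94 to 0.17).

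**Figure D3:**
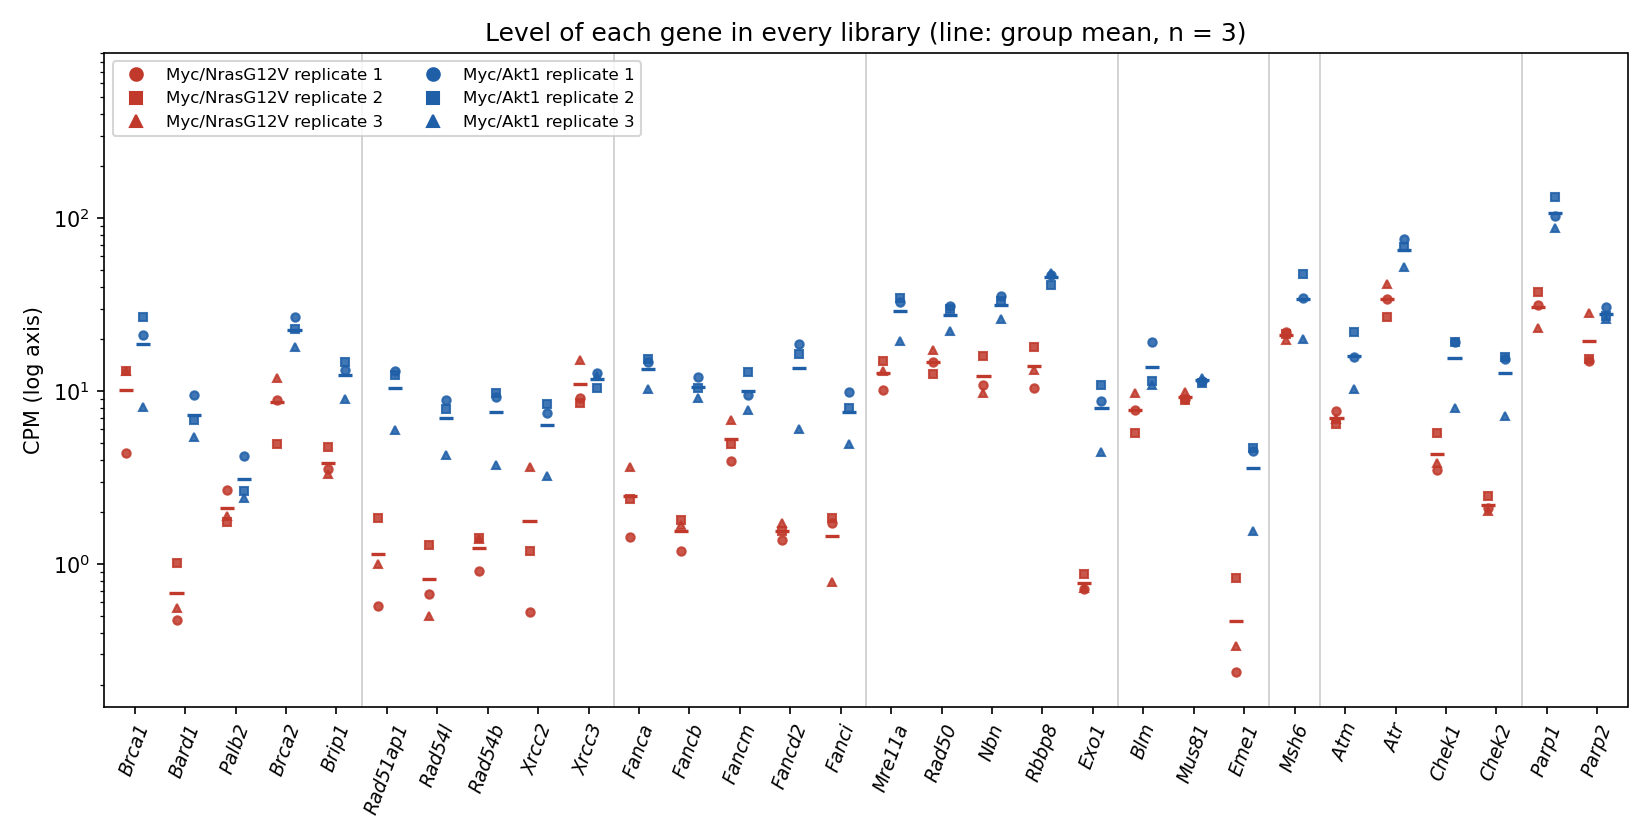
CPM (log axis) of each of the 30 genes in every library, Myc/NrasG12V to the left of Myc/Akt1 at each gene, with a line at the group mean (n = 3) and the genes grouped by role. In 24 of the 30 genes the points of the groups do not overlap. Brca1, Palb2, Xrcc2, Xrcc3, Msh6 and Parp2 overlap.

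Of the strand exchange genes, 4 of 5 were lower. Rad51ap1 (ENSMUSG00000030346), whose protein aids strand pairing, had the largest difference of the 30 genes on the log2(CPM + 1) scale. It had 0.573, 1.84 and 1.01 CPM in Myc/NrasG12V tumours, against 13.1, 12.3 and 5.95 CPM in Myc/Akt1 tumours. The lowest Myc/Akt1 library was still above every Myc/NrasG12V library, and the difference was −2.40 (interval −3.18 to −1.62, limma adjusted p = 0.00105). Rad54l, a motor protein that drives strand exchange, had 0.503 to 1.29 CPM in Myc/NrasG12V and 4.27 to 8.91 CPM in Myc/Akt1 (11.7% of the Myc/Akt1 mean, limma adjusted p = 9.81e-04). Its relative Rad54b had 0.907 to 1.42 CPM in Myc/NrasG12V and 3.73 to 9.73 CPM in Myc/Akt1 (16.5%, limma adjusted p = 0.00312). Both were fully separate between the groups, while the strand setting of the counting was not given in the sources used here, and 15.4% of the exon bases of Rad54l are shared with Lrrc41 on the opposite strand and 35.8% of those of Rad54b with Fsbp on the same strand.

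Xrcc2 and Xrcc3 encode members of complexes that assist strand exchange in homologous recombination. Xrcc2 had 0.525, 1.19 and 3.64 CPM in Myc/NrasG12V tumours, against 7.51, 8.47 and 3.23 CPM in Myc/Akt1 tumours. Replicate 3 of Myc/NrasG12V and replicate 3 of Myc/Akt1 crossed, and the Myc/NrasG12V mean was 27.9% of the Myc/Akt1 mean, or 13.4% without Myc/NrasG12V replicate 3. The call (difference −1.49, limma adjusted p = 0.0294) was lost on omission of Myc/NrasG12V replicate 1 (limma adjusted p = 0.0970) or 2 (0.0831) or of Myc/Akt1 replicate 1 (0.0972) or 2 (0.104). It was also lost under the 3 scaling factors (0.0584, 0.0588 and 0.0666), with no filter (0.0714) and by edgeR (0.0899). Xrcc3 had 9.12, 8.49 and 15.2 CPM in Myc/NrasG12V tumours, against 12.7, 10.4 and 12.2 CPM in Myc/Akt1 tumours. The highest and the lowest values both came from Myc/NrasG12V, and the difference of −0.14 had an interval of −0.72 to 0.45 (limma adjusted p = 0.708).

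All 5 Fanconi genes were lower. Fancd2 (ENSMUSG00000034023, chr6:113531682-113597017), which together with FANCI forms the clamp that is ubiquitinated at crosslinks, had 1.38, 1.56 and 1.73 CPM in Myc/NrasG12V tumours, against 18.6, 16.4 and 6.00 CPM in Myc/Akt1 tumours. The Myc/NrasG12V libraries were tightly grouped (1.56 ± 0.174 CPM) and the Myc/Akt1 libraries spread widely (13.7 ± 6.73 CPM, SD, n = 3 each), without overlap, and the difference was −2.39 (interval −3.25 to −1.52, limma adjusted p = 0.00171). Fanci had 1.72, 1.84 and 0.783 CPM in Myc/NrasG12V tumours, against 9.93, 7.93 and 4.95 CPM in Myc/Akt1 tumours. It too was separate in every library (limma adjusted p = 0.00213), and 16.0% of its exon bases are shared with Polg on the opposite strand. Fancb and Fanca encode parts of the core complex that ubiquitinates this clamp. Fancb (ENSMUSG00000047757), on the X chromosome, had 1.19, 1.79 and 1.68 CPM in Myc/NrasG12V tumours, against 12.0, 10.4 and 9.13 CPM in Myc/Akt1 tumours. It had the lowest adjusted p of the 30 genes (difference −2.17, interval −2.68 to −1.66, limma adjusted p = 2.53e-04), with all libraries of a group close together. Fanca had 1.43 to 3.64 CPM in Myc/NrasG12V and 10.2 to 15.3 CPM in Myc/Akt1 (18.5% of the Myc/Akt1 mean, limma adjusted p = 0.00103), and 10.5% of its exon bases are shared with Zfp276 on the opposite strand.

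Fancm, the translocase that recruits the core complex to stalled forks, had the smallest difference of the 5 Fanconi genes. It had 3.96, 4.96 and 6.82 CPM in Myc/NrasG12V tumours, against 9.46, 12.8 and 7.82 CPM in Myc/Akt1 tumours. The groups did not overlap, but replicate 3 of either group lay close to the other (difference −0.82, limma adjusted p = 0.0401). The call did not survive omission of Myc/NrasG12V replicate 1 (limma adjusted p = 0.133) or 2 (0.101), nor that of Myc/Akt1 replicate 1 (0.102) or 2 (0.152). It was also lost under the 3 scaling factors (0.126, 0.129 and 0.164), with no filter (0.0875), and by edgeR (0.126) and DESeq2 (0.104).

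All 5 genes of end sensing and resection were lower. Mre11a, Rad50 and Nbn encode the complex that binds a broken end, with the nuclease, the tether and the subunit that recruits ATM. Mre11a had 10.1, 14.9 and 13.0 CPM in Myc/NrasG12V tumours, against 32.8, 34.4 and 19.5 CPM in Myc/Akt1 tumours (limma adjusted p = 0.0111). Rad50 had 14.8, 12.5 and 17.2 CPM in Myc/NrasG12V tumours, against 30.9, 29.8 and 22.4 CPM in Myc/Akt1 tumours (limma adjusted p = 0.0129). Nbn had 10.8, 16.0 and 9.79 CPM in Myc/NrasG12V tumours, against 35.5, 33.2 and 25.9 CPM in Myc/Akt1 tumours (limma adjusted p = 0.00295). In all 3 every Myc/NrasG12V library was below every Myc/Akt1 library, and the Myc/NrasG12V means were 43.8%, 53.5% and 38.7% of the Myc/Akt1 means. Rbbp8, which encodes the cofactor CtIP that starts the trimming with this nuclease, had 10.5, 18.1 and 13.3 CPM in Myc/NrasG12V tumours, against 47.0, 41.1 and 48.1 CPM in Myc/Akt1 tumours. It was separate, and unlike most of the 30 genes it was not lowest in Myc/Akt1 replicate 3 (difference −1.66, limma adjusted p = 7.76e-04). Exo1 (ENSMUSG00000039748), the exonuclease of long-range trimming, had 0.716, 0.872 and 0.727 CPM in Myc/NrasG12V tumours, against 8.74, 10.9 and 4.45 CPM in Myc/Akt1 tumours. The groups were far apart, at 9.62% of the Myc/Akt1 mean (difference −2.28, limma adjusted p = 7.34e-04). The number of the 5 called was 3 without Myc/Akt1 replicate 1 or 2 and under the upper-quartile factors. Mre11a then had limma adjusted p of 0.0530, 0.0519 and 0.0536 and Rad50 of 0.0643, 0.0564 and 0.0752, and Rad50 was also lost under TMM (0.0550) and median-of-ratios factors (0.0561).

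Blm, Mus81 and Eme1 act on DNA strands that recombination has joined, and 1 of the 3 was lower. Eme1, which encodes a partner of the MUS81 nuclease, had 0.239, 0.826 and 0.336 CPM in Myc/NrasG12V tumours, against 4.50, 4.70 and 1.55 CPM in Myc/Akt1 tumours. These values rest on 5, 18 and 6 reads in Myc/NrasG12V and 106, 131 and 34 reads in Myc/Akt1. The groups were separate, at 13.0% of the Myc/Akt1 mean, or 8.02% without Myc/NrasG12V replicate 2 (difference −1.57, limma adjusted p = 0.00655), and 8.0% of its exon bases are shared with Lrrc59 on the opposite strand. Mus81 had 8.98, 8.86 and 9.90 CPM in Myc/NrasG12V tumours, against 11.5, 11.2 and 12.0 CPM in Myc/Akt1 tumours. The groups did not overlap, yet the difference was small (−0.29, interval −0.74 to 0.15, limma adjusted p = 0.261). Blm, the helicase that dissolves crossed strands, had 5.74 to 9.79 CPM in Myc/NrasG12V and 10.8 to 19.1 CPM in Myc/Akt1. It did not pass with all libraries (difference −0.73, limma adjusted p = 0.0723) and passed without Myc/NrasG12V replicate 3 (0.0382, with 0.0382 to 0.283 over all 16 alternatives).

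Msh6, whose protein recognises mismatched bases, was the 1 mismatch repair gene of the 30 and did not pass. It had 22.0, 21.4 and 19.7 CPM in Myc/NrasG12V tumours, against 34.7, 47.5 and 19.9 CPM in Myc/Akt1 tumours. Replicates 1 and 2 of Myc/Akt1 were above every Myc/NrasG12V library, and replicate 3 was level with them (difference −0.59, limma adjusted p = 0.141). Without Myc/Akt1 replicate 3 the limma adjusted p was 0.0133, and over all 16 alternatives the adjusted p ran between 0.0133 and 0.563.

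All 4 checkpoint kinases were lower. Chek2 (ENSMUSG00000029521, chr5:110839979-110874145), the effector of ATM, had 2.10, 2.48 and 2.01 CPM in Myc/NrasG12V tumours, against 15.4, 15.8 and 7.18 CPM in Myc/Akt1 tumours. The groups were far apart, at 17.2% of the Myc/Akt1 mean (difference −2.04, interval −2.74 to −1.33, limma adjusted p = 0.00138). Chek1, the effector of ATR, had 3.49, 5.69 and 3.86 CPM in Myc/NrasG12V tumours, against 19.3, 19.1 and 7.95 CPM in Myc/Akt1 tumours. It was separate as well, at 28.1% of the Myc/Akt1 mean (difference −1.55, limma adjusted p = 0.00896). Atm, the kinase of double-strand breaks, had 7.69, 6.43 and 6.88 CPM in Myc/NrasG12V tumours, against 15.7, 21.9 and 10.3 CPM in Myc/Akt1 tumours (difference −1.03, limma adjusted p = 0.0191). Atr, the kinase of stalled forks, had 34.1, 26.8 and 41.4 CPM in Myc/NrasG12V tumours, against 75.8, 68.4 and 52.0 CPM in Myc/Akt1 tumours (difference −0.92, limma adjusted p = 0.0105). Neither overlapped between the groups. The call of Atm was lost when replicate 2 of Myc/NrasG12V or replicate 1 or 2 of Myc/Akt1 was left out (limma adjusted p of 0.0602, 0.0676 and 0.0783), under the 3 scaling factors (0.0696, 0.0726 and 0.0823) and by edgeR (0.0545). That of Atr was lost without Myc/Akt1 replicate 1 (0.0516) and under the upper-quartile factors (0.0579), so that 2 of the 4 kinases were called in both of these settings.

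PARP enzymes mark broken DNA with chains of ADP-ribose, and 1 of the 2 was lower. Parp1 (ENSMUSG00000026496, chr1:180568924-180601254), the main enzyme of this kind, had 31.6, 37.1 and 23.2 CPM in Myc/NrasG12V tumours, against 103, 132 and 87.8 CPM in Myc/Akt1 tumours. It was separate, at 28.5% of the Myc/Akt1 mean (difference −1.79, interval −2.30 to −1.27, limma adjusted p = 6.08e-04). Parp2 had 14.9, 15.3 and 28.2 CPM in Myc/NrasG12V tumours, against 30.7, 27.3 and 25.9 CPM in Myc/Akt1 tumours. Replicate 3 of Myc/NrasG12V lay within the Myc/Akt1 range, while replicates 1 and 2 were below it (difference −0.56, limma adjusted p = 0.121). Without that library Parp2 passed (limma adjusted p = 0.00658, with 0.00658 to 0.558 over all 16 alternatives).

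Per length of exon, Parp1 was the most abundant of the 30 genes in both groups, at a mean of 5.79 CPM per kb in Myc/NrasG12V and 20.3 CPM per kb in Myc/Akt1 tumours. The length counts the exon bases of all annotated transcripts of a gene, so it can exceed that of 1 transcript. On this measure Exo1, Rad54l and Bard1 were the least abundant in Myc/NrasG12V tumours, at 0.0916, 0.106 and 0.121 CPM per kb. They had 0.953, 0.910 and 1.28 CPM per kb in Myc/Akt1 tumours. By mean CPM, without regard to length, Eme1 was the lowest in Myc/NrasG12V tumours (0.467 CPM). In Myc/Akt1 tumours the least abundant per kb was Palb2, at 0.421 CPM per kb, against 0.287 CPM per kb in Myc/NrasG12V tumours. In the read counts behind these levels, 9 of the 30 genes had under 50 reads in every Myc/NrasG12V library.

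Ratios of a gene to its partner within a library do not depend on how libraries are scaled, and 10 pairs were formed from known partnerships after the values of the genes had been seen. In 6 of the 10 pairs the groups did not overlap. No share over other pairs of genes was computed to set beside this count. In Bard1 per Brca1, Eme1 per Mus81, Xrcc2 per Xrcc3, Parp1 per Parp2 and Palb2 per Brca2, only 1 gene was called. The separation of these pairs thus largely repeats the calls of single genes. Bard1 per Brca1 was 0.109, 0.0777 and 0.0426 in Myc/NrasG12V tumours, against 0.449, 0.252 and 0.674 in Myc/Akt1 tumours, a log2 difference of −2.58. Chek2 per Atm was 0.273, 0.386 and 0.293 in Myc/NrasG12V tumours, against 0.978, 0.720 and 0.696 in Myc/Akt1 tumours, a log2 difference of −1.33. In both pairs the partner named first was lower relative to the partner named second in every Myc/NrasG12V library. Eme1 per Mus81 (log2 difference −2.66), Xrcc2 per Xrcc3 (−2.01) and Parp1 per Parp2 (−1.24) were separate in the same direction. Palb2 per Brca2 ran the other way, with 0.301, 0.352 and 0.159 in Myc/NrasG12V tumours, against 0.156, 0.116 and 0.135 in Myc/Akt1 tumours. Replicate 3 of Myc/NrasG12V (0.159) and replicate 1 of Myc/Akt1 (0.156) nearly touched. Rad50 per Mre11a overlapped, with 0.837 to 1.47 in Myc/NrasG12V and 0.864 to 1.15 in Myc/Akt1, as did Nbn per Mre11a, Fancd2 per Fanci and Chek1 per Atr. With 3 samples a group, the smallest two-sided exact permutation p is 0.1, which the 6 separate pairs had (0.167 adjusted over the 10 pairs), so no pair could pass 0.05.

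**Figure D4:**
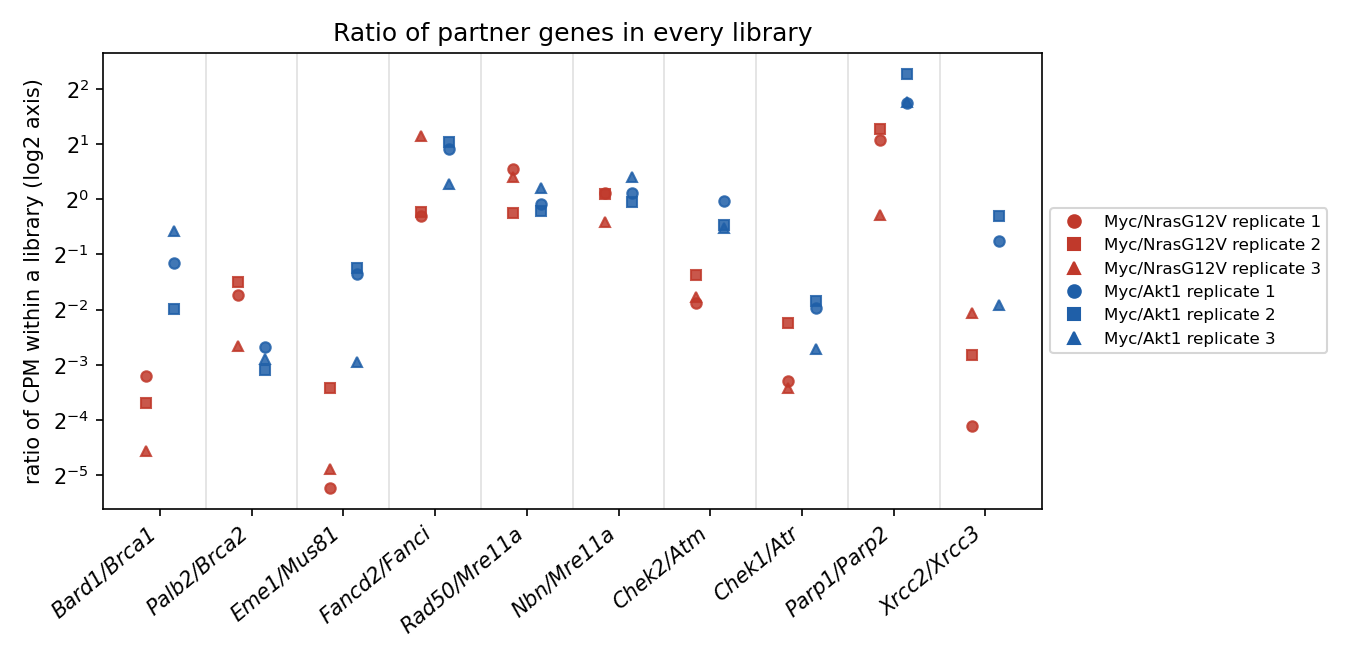
Ratio of the CPM of 2 partner genes within each library (log2 axis) for 10 pairs, Myc/NrasG12V to the left of Myc/Akt1. In 6 pairs the groups do not overlap, with Palb2 per Brca2 higher and the other 5 lower in Myc/NrasG12V. In the 4 pairs Rad50 per Mre11a, Nbn per Mre11a, Fancd2 per Fanci and Chek1 per Atr they overlap.

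Over 7 further lists of repair and checkpoint genes, 115 were tested, of which 48 were lower and 4 higher (median −0.60, against −0.26 over all genes tested), and with TMM factors 27 were lower and 6 higher. The counts of these lists stand against 29.5% of all genes tested lower and 10.0% higher, and under the scaling factors against 17.9%, 17.5% and 16.3% lower. Of 31 other recombination and Fanconi genes 13 were lower and 0 higher, with 9 or 10 lower and 1 higher under the 3 scaling factors. Fignl1, which encodes an ATPase of homologous recombination, averaged 1.83 ± 0.851 CPM in Myc/NrasG12V and 17.3 ± 7.04 CPM in Myc/Akt1 (SD, n = 3 each, limma adjusted p = 9.02e-04).

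Of 20 other checkpoint genes 10 were lower, with 5 under each scaling factor, and 0 were higher. Cdc25c, the phosphatase that lets cells enter mitosis, had 0.168 to 0.551 CPM in Myc/NrasG12V and 6.57 to 10.5 CPM in Myc/Akt1 (limma adjusted p = 1.67e-04). H2afx, the histone variant phosphorylated at breaks, had 3.25 to 5.59 CPM in Myc/NrasG12V and 18.5 to 34.2 CPM in Myc/Akt1 (limma adjusted p = 6.25e-04). Both were separate between the groups. The count of 10 became 6 when either of replicates 1 and 2 of Myc/NrasG12V or replicate 2 of Myc/Akt1 was left out, and 5 when replicate 1 of Myc/Akt1 was.

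Of 12 end joining genes 6 were lower, with 3 under each scaling factor and 3 without Myc/Akt1 replicate 1. None of the 12 was higher on the CPM scale, and 1 was under the median-of-ratios and upper-quartile factors. Polq, the polymerase of microhomology-mediated joining, had 0.478, 0.964 and 0.391 CPM in Myc/NrasG12V tumours, against 14.9, 12.5 and 7.45 CPM in Myc/Akt1 tumours. Every Myc/NrasG12V library was far below (difference −2.94, limma adjusted p = 2.05e-04). Xrcc6, which encodes the Ku70 subunit that caps ends, averaged 23.1 ± 3.07 CPM in Myc/NrasG12V and 59.8 ± 9.26 CPM in Myc/Akt1 (SD, n = 3 each, limma adjusted p = 0.00106).

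Of 6 other mismatch repair genes 3 were lower, with 1, 1 and 0 under the 3 scaling factors. The count was 1 without replicate 1 of either group and 0 without replicate 2 of either. Pms1, a mismatch repair gene of the MutL family, averaged 4.34 ± 0.925 CPM in Myc/NrasG12V and 9.41 ± 1.69 CPM in Myc/Akt1 (SD, n = 3 each, limma adjusted p = 0.0128). Its call was lost without replicate 2 of Myc/NrasG12V (0.0502) or of Myc/Akt1 (0.0611) and under the upper-quartile factors (0.0528).

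Base and nucleotide excision repair mend damage on a single strand. Of 17 base excision genes 7 were lower and 1 higher, and under the scaling factors 5 or 6 were lower and 2 higher. Neil3, a glycosylase known from dividing cells, had 1.34 to 2.25 CPM in Myc/NrasG12V and 9.63 to 14.0 CPM in Myc/Akt1 (limma adjusted p = 3.13e-04). Lig1, the ligase of replication, had 3.91 to 10.3 CPM in Myc/NrasG12V and 24.5 to 38.1 CPM in Myc/Akt1 (limma adjusted p = 0.00126). Mpg, the glycosylase of alkylated bases, was the 1 higher gene, with 9.60 to 22.5 CPM in Myc/NrasG12V and 5.56 to 7.68 CPM in Myc/Akt1 (difference 1.10, limma adjusted p = 0.0221). All 3 were separate, and the call of Mpg was lost when replicate 1 of Myc/NrasG12V (0.0560) or replicate 1 (0.0787) or 2 (0.0749) of Myc/Akt1 was left out. Of 20 nucleotide excision genes 6 were lower and 1 higher, and under each scaling factor 1 was lower and 1 higher. The lower count was thus near the 29.5% of all genes tested on the CPM scale and under the 16.3 to 17.9% with the factors, so it is no result about this list. The lower count was 3 with replicate 1 of Myc/NrasG12V left out, and 2 with its replicate 2, or replicate 1 or 2 of Myc/Akt1, left out. Rad23b, part of the damage sensor with XPC, averaged 157 ± 10.5 CPM in Myc/NrasG12V and 306 ± 31.8 CPM in Myc/Akt1 (SD, n = 3 each, limma adjusted p = 0.00228). Gtf2h2, a subunit of the unwinding factor TFIIH, averaged 15.5 ± 0.541 CPM in Myc/NrasG12V and 27.3 ± 1.19 CPM in Myc/Akt1 (limma adjusted p = 0.00732), and was lost under the 3 scaling factors (0.0502, 0.0544 and 0.0736). Ercc5, which encodes the nuclease XPG, was higher, at 51.5 ± 5.25 CPM in Myc/NrasG12V and 33.6 ± 1.75 CPM in Myc/Akt1 (difference 0.60, limma adjusted p = 0.0184). That call needed replicate 1 of Myc/NrasG12V (0.0567 without it) and replicates 1 (0.0540) and 2 (0.0690) of Myc/Akt1.

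Translesion synthesis, the copying of damaged DNA by special polymerases, had 3 of 9 genes lower and 2 higher, near the 29.5% of all genes tested that were lower. Polk, one of these polymerases, had 35.7, 25.1 and 33.6 CPM in Myc/NrasG12V tumours, against 9.97, 13.3 and 9.50 CPM in Myc/Akt1 tumours. Every Myc/NrasG12V library was above every Myc/Akt1 library (difference 1.44, limma adjusted p = 0.00149). Rev1, the scaffold of these polymerases, averaged 32.2 ± 2.78 CPM in Myc/NrasG12V and 21.4 ± 2.11 CPM in Myc/Akt1 (SD, n = 3 each, limma adjusted p = 0.0309). It was lost when replicate 1 (0.112) or 2 (0.0581) of Myc/NrasG12V or replicate 1 (0.121), 2 (0.0559) or 3 (0.0575) of Myc/Akt1 was left out, which left Polk as the 1 higher gene. Polh, the polymerase that copies ultraviolet lesions, was lower, at 4.55 ± 0.826 CPM in Myc/NrasG12V and 12.5 ± 4.48 CPM in Myc/Akt1 (limma adjusted p = 0.0129, and 0.0584 and 0.0579 without Myc/Akt1 replicate 1 and 2). Ube2a, a ubiquitin conjugase of this pathway, averaged 16.9 ± 1.04 CPM in Myc/NrasG12V and 37.0 ± 17.9 CPM in Myc/Akt1 (limma adjusted p = 0.0283). Its call was lost when replicate 1 (0.0705) or 2 (0.0771) of Myc/NrasG12V or replicate 1 of Myc/Akt1 (0.050) was left out, under the 3 scaling factors (0.110, 0.110 and 0.138), with no filter (0.050), by edgeR (0.0749) and by DESeq2 (0.0520). Of the 9 genes, 1 was lower under each scaling factor, 1 when replicate 1 or 2 of Myc/NrasG12V or replicate 2 of Myc/Akt1 was left out, and 0 when replicate 1 of Myc/Akt1 was.

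**Figure D5:**
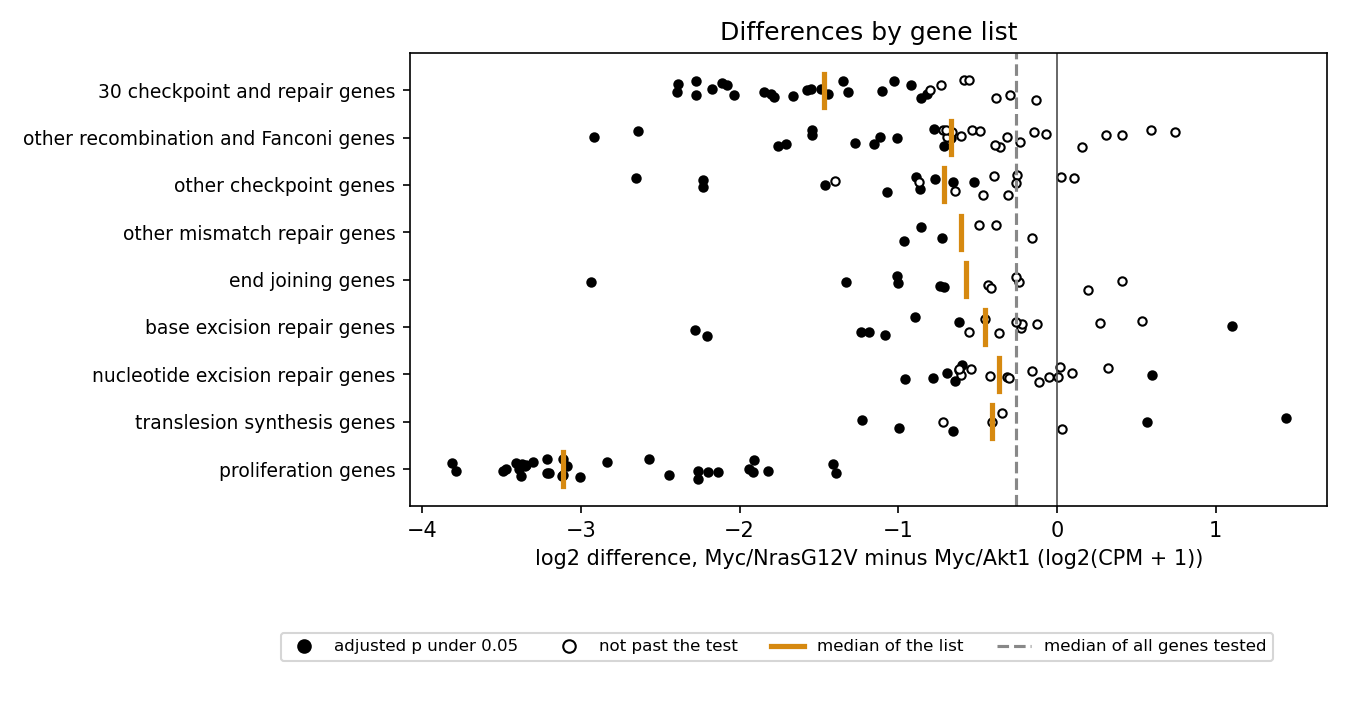
Difference of each tested gene (Myc/NrasG12V minus Myc/Akt1, log2(CPM + 1)) in the 30 repair and checkpoint genes, 7 further repair lists and the proliferation genes. Filled points passed limma at an adjusted p under 0.05, thick ticks are list medians and the dashed line is the median of all genes tested. The median is −1.47 for the 30 genes, between −0.71 and −0.37 for the 7 further lists, and −3.11 for the 32 proliferation genes.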

How the data were processed

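RNA from 6 liver tumours (3 per group) was sequenced with a stranded polyadenylated RNA kit, per the labels. The deposited values are CPM per gene, made by the authors. The submitters' processing notes name the tools edgeR 3.22.5, STAR 2.6.1c and Subread 1.6.3 and the build GRCm38, with no role. The sources used here give no strand setting, annotation release or treatment of reads that map to several places. Whole reads were recovered from the CPM of each library within 0.01 read for 100% of values. Genes with at least 0.457 CPM in 3 libraries and 15 reads in all were kept (14365). limma 3.58.1 (trend, two-sided) was run on log2(CPM + 1) in R 4.3.3, with Benjamini-Hochberg adjustment and a threshold of 0.05. This pseudocount understates the change of genes at low levels. The groups were fitted without a block. Alternatives were 3 scaling factors, pseudocounts of 0.1 and 5 CPM, a filter of 1 CPM in 3 libraries, no filter, edgeR 4.0.16 and DESeq2 1.42.0 on the recovered reads, a replicate block and leaving out each library. The test was checked on simulated data in which few genes changed, in both directions. That check does not bear on how the libraries are scaled. Exon lengths and overlaps came from GENCODE M21 and promoter windows from RefSeq.

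Whether the 3 samples of a group are tumours of separate animals is not in the labels, and p-values measure the spread between these samples. All 30 genes are named, and of each further list the 2 genes of lowest adjusted p in each direction among those called. Some genes this rule names are not reported here. The members and lists were chosen with earlier results of these data known. Of 117 genes on the further lists, 115 could be tested. A count of 3 reads corresponds to 0.108 to 0.168 CPM, for counting error only.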

Additional observations from a re-analysis of the deposited data

How the results depend on the processing

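Of 480 values of the 30 genes under 16 alternatives, 432 kept their direction and side of the threshold, 38 lost the call, 3 gained it and 7 changed sign without being called. Of the 30 genes, 17 were called lower with all libraries and under all 16 alternatives. The sign changes were Mus81 under the upper-quartile factors (0.044) and Xrcc3 under TMM (0.15), median-of-ratios (0.16) and upper-quartile (0.20) scaling, by edgeR (0.19) and DESeq2 (0.20). Leaving out 1 library moved Xrcc3 between −0.38 (without Myc/NrasG12V replicate 3) and 0.0087 (without its replicate 2). Leaving out 1 library gave 17 to 25 of the 30 genes lower. The members' median was −0.96 with a pseudocount of 5 CPM, which shrinks low genes by construction. Over all genes, 2567, 2515, 2345, 2512 and 2791 were lower and 2331, 2366, 2544, 2381 and 2752 higher under those 3 factors, by edgeR and by DESeq2 in that order, against 4240 lower and 1437 higher on the CPM scale. Leaving out 1 library gave 2871 to 4808 lower and 954 to 1545 higher, with the fewest in either direction without Myc/Akt1 replicate 1. Of the 115 other repair genes, 27, 26, 24 and 26 were lower under the 3 factors and by edgeR, and 7, 7 and 10 were higher under the median-of-ratios and upper-quartile factors and by DESeq2. Leaving out 1 library gave 26 to 56 lower and 1 to 4 higher. The cause of these shifts was not tested.

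Samples with the same replicate number did not deviate together (correlations −0.08, 0.11 and 0.08 over genes), so the numbers were not taken as pairs. With the replicate number as a block, 21 of the 30 genes, 4063 genes in all and 41 other repair genes were lower, and 1467 genes in all and 3 other repair genes were higher. Among the genes named, the block ended the calls of Xrcc2 (limma adjusted p = 0.0511), Fancm (0.0567) and Rev1 (0.0573). Not every sample correlated best with its own number. With 3 libraries a group and 9 of the 30 genes under 50 reads in every Myc/NrasG12V library, depth and the number of samples limit the precision of the low genes.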
